A study of Mus musculus with 27 samples.

Results

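The comparison described here set tumour regions with high transcript levels of 6 proliferation genes against regions with low levels of the same genes, within liver metastases of MC38, a mouse colon carcinoma line. All 27 profiled regions were ranked by a proliferation score, and 9 of the 27 were taken as proliferation-high and 9 as proliferation-low, which left 9 between them. The score was the mean of log2(signal + 1) over Mki67, Top2a, Ccnb1, Cdk1, Plk1 and Bub1, after each region was set to a common median over all genes, minus the mean score of the regions with the same label. The values of these 6 genes therefore chose the regions and are given as a description only, without a test. The other 19609 genes of the panel were compared.

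The regions came from C57BL/6 mice that were 2 months old when MC38 cells were injected into the portal vein. In 13 regions the cells carried CMTM6 shRNA (knockdown) and in 14 a nontargeting shRNA (control). All regions were segments named Remainder as deposited. They are taken here as the area of a chosen tumour field left after the desmin-positive fibroblasts had been set apart. In the study, MC38 cells were stained for pan-cytokeratin and fibroblasts for desmin. They were read with the GeoMx mouse whole-transcriptome probes, whose tags are released by light from one region at a time and sequenced. The proliferation-high group held knockdown regions 3, 5, 6, 7 and 12 and control regions 2, 11, 12 and 14. The proliferation-low group held knockdown regions 1, 2, 4, 8 and 10 and control regions 4, 6, 7 and 13. The study used 3 mice per label and the sample descriptions name no mouse for any region, so some regions shared an animal and every p-value over regions given here is too small. Few epithelial transcripts stood out in the segments: 0 of 11 colon epithelium markers and 1 of 9 epithelial genes lay above the background of the panel, against 9 of 9 mesenchymal genes.

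Cells that divide pass through DNA replication in S phase and through mitosis in M phase, and each phase is served by its own set of genes. Genes for replication are switched on by E2F transcription factors as cells leave G1, and genes for mitosis are held back by the DREAM complex in resting cells and switched on late in the cycle by MYBL2 and FOXM1. In sections of tumours, the transcripts of both sets are commonly read as a measure of how many cells are cycling. In a bulk region, more cycling cells and more of these transcripts per cell cannot be told apart.

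The label-centred score spanned 0.159 to 0.451 in the proliferation-high regions and -0.498 to -0.132 in the proliferation-low regions, a mean difference of 0.55 on the log2 scale. At the upper limit, the region just inside (knockdown region 3) scored 0.159 and the one just outside (control region 5) 0.149. At the lower limit, the region just inside (knockdown region 2) scored -0.132 and the one just outside (knockdown region 11) -0.0895. The upper limit thus did not fall in a gap between regions.

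Among the genes that made the score, Mki67, which encodes the Ki-67 antigen of cycling cells, had a lowest, median and highest signal of 3721, 4119 and 4796 in proliferation-high regions, against 2089, 2556 and 3159.5 in proliferation-low regions. These signals are on the common scale, with the difference between labels removed. Ccnb1, the cyclin that drives entry into mitosis, had 2189.5, 2486 and 2911 in proliferation-high regions and 1473, 1725 and 1910.0 in proliferation-low regions. Its kinase partner Cdk1 had 2024, 2195 and 2457 in proliferation-high regions and 1238, 1549 and 1941 in proliferation-low regions. The groups did not overlap in these genes, which is no result, since the regions were chosen on them. Plk1, a mitotic kinase, had 1581, 1727 and 2020.3 in proliferation-high regions and 1054, 1239 and 1395 in proliferation-low regions. Bub1, a spindle checkpoint kinase, had 650.3, 775 and 829.7 in proliferation-high regions, against 371, 492 and 647 in proliferation-low regions. For Top2a, the topoisomerase that untangles replicated chromosomes, the values were 1879, 2112 and 2378 in proliferation-high regions and 1434, 1649 and 1929 in proliferation-low regions. Top2a was the gene of the 6 whose groups overlapped, and its log2 difference of 0.37 was the smallest, against 0.53 to 0.70 for the other 5.

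**Figure D1:**
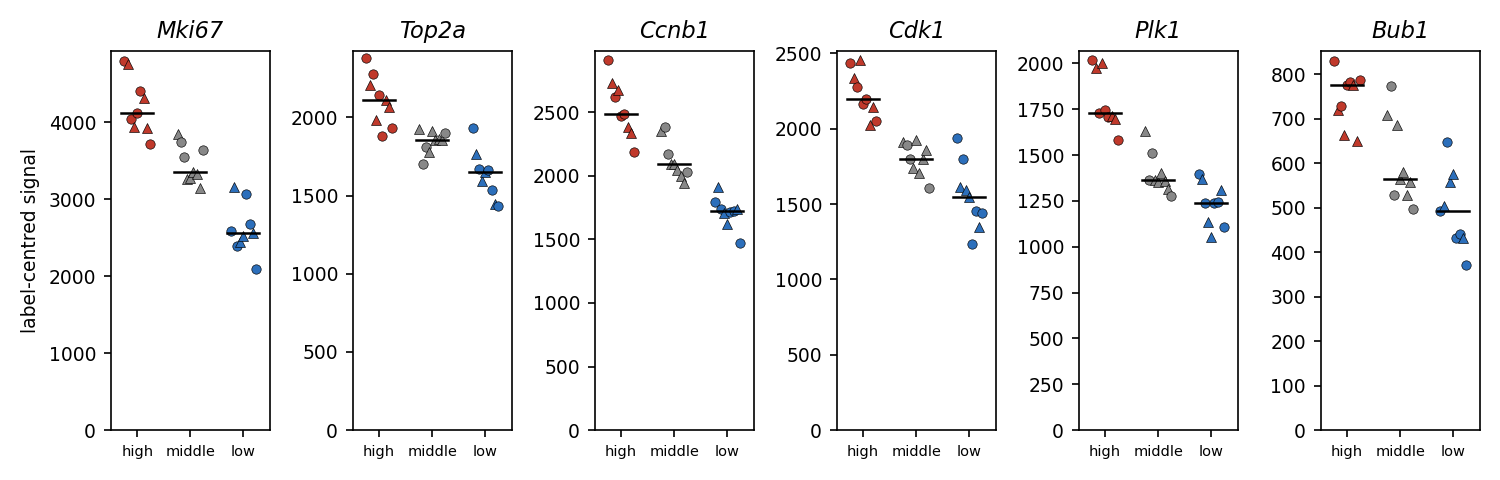
Signal of the 6 score genes (y axis, common scale with the label difference removed, arbitrary units from 0) in the proliferation-high, middle and proliferation-low regions (x axis, 9 each; circles, knockdown; triangles, control; line, median). The regions were selected on these values; in Mki67 the 9 high regions lie between 3721 and 4796 and the 9 low regions between 2089 and 3159.5.

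A technical measure moved with the score. The receptor genes of smell, pheromone, taste and trace amine sensing, which tumour cells of the gut are not expected to use, served as background of the probes (1125 genes). Their mean level was 16.6% to 19.2% of the region's upper quartile in proliferation-high regions and 19.2% to 25.0% in proliferation-low regions. The label-centred log2 ratio was -0.25 to -0.04 in proliferation-high and -0.04 to 0.34 in proliferation-low regions, so the groups did not overlap, and its mean difference was -0.30 (exact permutation test, two-sided, p = 4.11e-05, the smallest that 48620 arrangements can give). In this comparison the score and the background ratio cannot be told apart, and with the ratio as a covariate limma kept none of the calls between the 2 groups given below. The total of steps, the nearest measure of depth in the table, was 7650748 to 20762997 in proliferation-high regions and 8772477 to 25209342 in proliferation-low regions, and its log2 difference of 0.03 was within the spread between regions (exact permutation p = 0.907). Since regions shared mice, both p-values are too small.

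**Figure D2:**
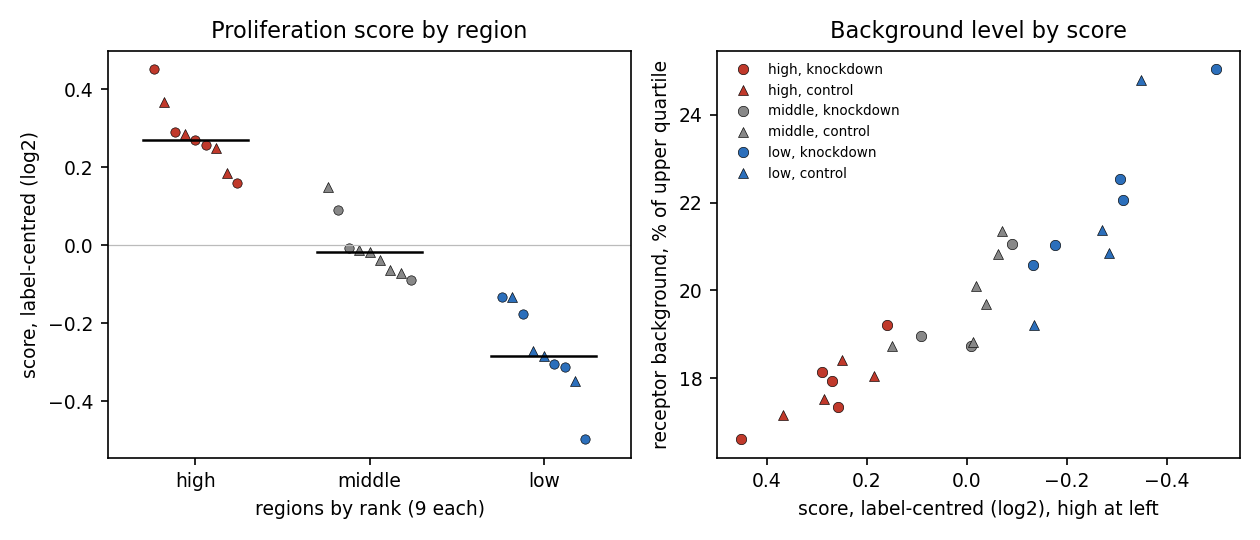
Left, label-centred proliferation score (y axis, log2) of the 27 regions in rank order within the high, middle and low groups (circles, knockdown; triangles, control; line, median). Right, mean level of the receptor background genes as a percentage of the upper quartile (y axis) against the same score (x axis, high at left); the 9 high regions lie at 16.6% to 19.2% and the 9 low regions at 19.2% to 25.0%.

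Across the 19609 genes, 5370 were higher (27.4%) and 2376 lower (12.1%) in proliferation-high than in proliferation-low regions (limma on log2 values, Benjamini-Hochberg adjusted p under 0.05). The changes were small: at an unadjusted p under 0.05 and a fold over 1.5, the limits used in the study, 128 genes were higher (0.653%) and 73 lower (0.372%). In 858 genes (4.38%) the high and low regions did not overlap. These counts followed the level of the gene. Of the 3465 genes with a mean log2 level up to 7, 0.0289% were higher and 24.7% lower, with a median log2 difference of -0.12. Of the 1807 genes with a level between 10 and 11, 70.8% were higher and 0.885% lower, with a median of 0.25. The 1125 background genes had a median of -0.12, and 26.4% of them were lower. A higher count in a list of well expressed genes is therefore read against 60.4% to 74.4%, the share of genes called higher at levels from 9 upward, rather than against 27.4%.

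Several other fits took this trend out. After quantile normalization of the same 2 groups of regions, the median difference was between -0.01 and 0.06 at every level, and 1338 genes were higher (6.82%) and 815 lower (4.16%). With the background ratio as a covariate, 0 genes were higher (0%) and 0 lower (0%) in limma, although 1704 had an unadjusted p under 0.05 (805 higher and 899 lower). The covariate and the group were nearly the same split of the regions, and the median standard error was 0.12 with the covariate against 0.07 without it. In a fit of the score as a slope over all 27 regions, with label and background ratio as terms, 43 genes rose with the score (0.219%) and 5 fell (0.0255%). These fits with the split kept or with a slope were added after the data had been seen. Setting the same upper quartile instead of the same median moved the median of all genes to -0.19, with 1956 genes higher and 10207 lower, so that 16.1% of the called genes were higher against 69.3% in the fit on the common median. Directions below are thus relative to the median gene, and p-values over regions that share mice are too small in each of these fits.

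**Figure D3:**
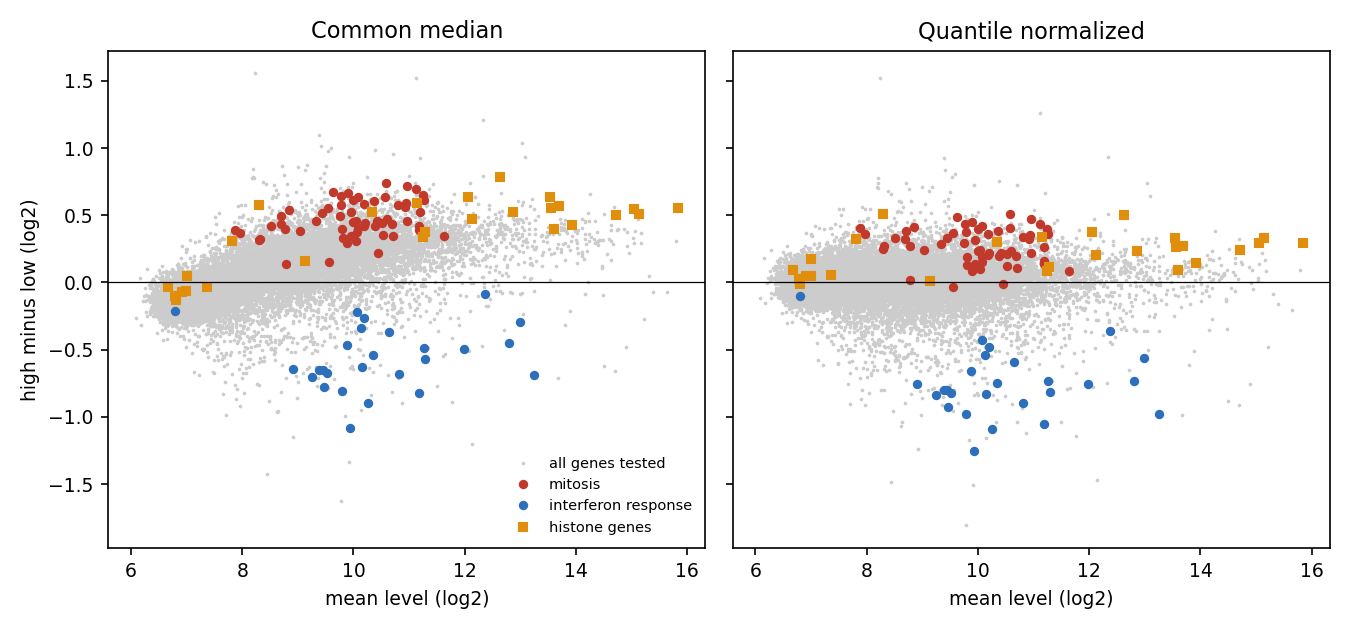
Difference between proliferation-high and proliferation-low regions (y axis, log2) against the mean level of each of 19609 genes (x axis, log2), with the mitosis list (red), histone genes (orange) and interferon response list (blue) marked. Left, on the common median, the cloud of all genes climbs with level; right, after quantile normalization, it is flat, with the mitosis list at a median of 0.27 and the interferon list at -0.78.

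The mitosis genes outside the score followed the score genes. As revealed by limma, 57 of the 58 (98.3%) were higher in proliferation-high regions and none was lower, with log2 differences of 0.14 to 0.74. Their median was 0.45, against -0.01 over all genes, and the list had a mean level of 10.0. All genes at levels from 9 to 10 had a median of 0.20, with 60.4% higher. Those at levels from 10 to 11 had a median of 0.25, with 70.8% higher. In 36 of the 58 the high and low regions did not overlap (4.38% of all genes, over all levels together). After quantile normalization 44 of the 58 were higher, with a median of 0.27, and with the same upper quartile 52 were. With the background covariate the median was 0.28 and 40 of the 58 had an unadjusted p under 0.05, all of them higher, while none kept an adjusted call. The slope fit with the background ratio called 18 of the 58, all rising. Within labels, 55 of the 58 were called in the knockdown regions alone (4 against 4, median 0.55). In the control regions alone 51 were called (5 against 5, median 0.38).

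By role, the largest median was that of the spindle motor and cytokinesis genes, 0.57, with all 14 higher. Racgap1, part of the centralspindlin complex that sets the cleavage plane, had 2723, 2971 and 3383 as lowest, median and highest signal in proliferation-high regions, against 1822, 1923 and 2299 in proliferation-low regions. Its log2 difference was 0.61 (SE 0.06; limma adjusted p = 1.32e-07), and it was 0.36 after quantile normalization (adjusted p = 1.54e-04). Prc1, which bundles the microtubules of the central spindle, had 1484, 1644 and 1829 in proliferation-high regions and 952, 1069 and 1259.6 in proliferation-low regions. All 9 high regions were above all 9 low ones in both genes. Tpx2, which activates Aurora A on spindle microtubules, stood at 1710.0, 1884 and 2240.3 in proliferation-high regions, against 966, 1219 and 1381 in proliferation-low regions (log2 difference 0.64, SE 0.06, limma adjusted p = 1.32e-07). The kinesin Kif2c, a microtubule depolymerase at kinetochores named here after its values were seen, differed by 0.57 (SE 0.06).

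The checkpoint and anaphase-promoting complex genes rose in 10 of 11. Cdc20, the activator of that complex, had 2369, 2781 and 3311 in proliferation-high regions, against 1462, 1799.8 and 1984 in proliferation-low regions. It had the smallest p of the mitosis list (log2 difference 0.69, SE 0.07; limma adjusted p = 9.24e-08) and stayed called in the slope fit with the background ratio (adjusted p = 0.00213). Ube2c, the ubiquitin carrier that works with the complex, had 2449, 2534 and 2940.1 in proliferation-high and 1212, 1564 and 1922 in proliferation-low regions (log2 difference 0.72). The checkpoint kinase Bub1b had 1729.7, 2048 and 2371 in proliferation-high regions and 1013, 1196 and 1548 in proliferation-low regions (0.74). No region of either group crossed into the range of the other in these 3 genes. Ube2s, which extends the ubiquitin chain and had the highest level of the list, differed by 0.35 (SE 0.07) on the common median, by 0.08 after quantile normalization and by -0.02 with the background covariate. All 13 kinases, cyclins and phosphatases of mitotic entry were higher (median 0.43), as were all 13 kinetochore and centromere genes (0.44), all 5 condensins (0.47) and both transcription factors, Foxm1 and Mybl2 (0.34). After quantile normalization neither of the last pair was called.

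The promoters of the 4 mitosis genes with the smallest p that hold a searched motif are shown, since the starts of such genes are known for shared short motifs. In windows of 250 bases before to 50 after a start (RefSeq, GRCm38.p6), the cell cycle homology region, CHR, was searched as TTTGAA or TTTAAA, the element bound by DREAM and later by MYBL2 and FOXM1 in mouse and human promoters. The CCAAT box, bound by NF-Y, was searched as CCAAT, and the E2F site as TTTCCCGC, TTTCGCGC, TTTGCCGC or TTTGGCGC, each on both strands. Of 64 mitosis genes with the score genes included, 52 matched, with 55 windows. A CHR was found in 72.7% of those windows against 27.6% of all 32851 windows, a CCAAT box in 74.5% against 37.4%, and both in 63.6% against 10.7%. Capitals mark the motifs in the promoters of Cdc20 (chr4:118437294-118437593, minus strand), Racgap1 (chr15:99651607-99651906, minus strand), Prc1 (chr7:80294201-80294500, plus strand) and Ube2c (chr2:164769679-164769978, plus strand).
Cdc20: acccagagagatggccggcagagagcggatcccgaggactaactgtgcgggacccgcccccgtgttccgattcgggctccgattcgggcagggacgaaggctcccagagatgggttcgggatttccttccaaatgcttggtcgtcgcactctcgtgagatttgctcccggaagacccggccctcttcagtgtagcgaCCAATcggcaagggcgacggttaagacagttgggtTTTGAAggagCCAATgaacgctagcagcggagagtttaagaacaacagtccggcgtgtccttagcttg
Racgap1: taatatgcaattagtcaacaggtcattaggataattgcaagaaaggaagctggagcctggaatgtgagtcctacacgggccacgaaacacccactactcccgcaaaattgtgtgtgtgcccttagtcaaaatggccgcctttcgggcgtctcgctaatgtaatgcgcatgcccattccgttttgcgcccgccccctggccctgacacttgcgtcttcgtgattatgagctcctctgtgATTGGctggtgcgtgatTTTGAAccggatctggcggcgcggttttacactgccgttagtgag
Prc1: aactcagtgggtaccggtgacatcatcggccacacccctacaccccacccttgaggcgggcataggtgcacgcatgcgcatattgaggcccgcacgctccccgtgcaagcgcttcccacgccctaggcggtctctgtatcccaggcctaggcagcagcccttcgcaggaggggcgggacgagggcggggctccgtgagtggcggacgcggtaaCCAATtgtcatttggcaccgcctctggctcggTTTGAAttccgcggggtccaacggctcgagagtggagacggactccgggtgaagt
Ube2c: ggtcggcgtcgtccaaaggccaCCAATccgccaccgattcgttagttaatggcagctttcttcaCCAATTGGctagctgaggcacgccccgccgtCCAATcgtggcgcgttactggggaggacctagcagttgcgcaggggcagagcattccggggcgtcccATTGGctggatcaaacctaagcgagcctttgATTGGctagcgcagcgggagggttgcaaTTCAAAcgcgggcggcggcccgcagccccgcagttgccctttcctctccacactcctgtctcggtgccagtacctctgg
All 4 windows held a TTTGAA close to the start, 18 bases before it in Cdc20, 5 bases before it in Prc1, 29 bases before it in Ube2c and just after it in Racgap1, with at least 1 CCAAT box. These matches are a description of letters and not of bound sites.

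Genes of DNA replication were higher in proliferation-high regions too. Limma called 41 of 43 higher (95.3%) and none lower, with a median log2 difference of 0.41. At levels from 10 to 11, where the list had its mean (10.3), all genes had a median of 0.25 and 70.8% were higher. After quantile normalization 25 were higher (median 0.21), and with the background covariate 5 had an unadjusted p under 0.05, all higher, with a median of 0.10. The slope fit with the background ratio called 2 of the 43, Mcm5 and Rrm1. All 13 licensing and helicase genes rose (median 0.43). Mcm5, a subunit of the helicase that opens the DNA, had 4264, 5451 and 5904 in proliferation-high regions and 2907, 3276 and 4011 in proliferation-low regions (log2 difference 0.61, SE 0.07; limma adjusted p = 1.02e-06). Its 2 groups were apart, as were those of the nucleotide supply enzymes Rrm1 and Tk1. Rrm1, the large subunit of ribonucleotide reductase, had 2563, 3216 and 3513 in proliferation-high regions and 1788, 2170.4 and 2379 in proliferation-low regions. The thymidine kinase Tk1 had 1823, 1948 and 2057 in proliferation-high regions, against 1221, 1360.1 and 1594 in proliferation-low regions. Rrm2, the small subunit and the most abundant gene of the list, behaved otherwise: its difference was 0.32 (SE 0.09, limma adjusted p = 0.00935), 0.04 after quantile normalization and -0.23 with the background covariate. Lig1, the ligase that joins Okazaki fragments, differed by 0.55, and all 11 polymerase and clamp genes were called higher.

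E2F sites marked this second list. They were found in 37.2% of the 43 replication windows (37 of 43 genes matched) against 5.45% of the mitosis windows and 2.26% of all windows, whereas a CHR was found in 25.6% of replication windows, near the 27.6% of all. Mcm5 is shown (chr8:75109259-75109558, plus strand) because it is the replication gene of smallest p with an E2F site in its window, a choice made after the values were seen.
Mcm5: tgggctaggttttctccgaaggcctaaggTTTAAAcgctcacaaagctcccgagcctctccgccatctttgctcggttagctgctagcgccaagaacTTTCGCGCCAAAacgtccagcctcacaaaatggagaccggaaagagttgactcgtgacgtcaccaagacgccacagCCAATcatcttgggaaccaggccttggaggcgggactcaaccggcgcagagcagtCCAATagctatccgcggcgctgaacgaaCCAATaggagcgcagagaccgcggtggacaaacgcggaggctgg
Its first capitals are a TTTAAA, its second run holds TTTCGCGC and, overlapping it on the other strand, TTTGGCGC, and 3 CCAAT boxes follow.

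Histone genes came to notice in the slope fit and were grouped after their values were seen. The canonical histones package newly replicated DNA, and their transcripts are made in S phase. Of the 43 genes that rose with the score at a given background ratio, 13 were canonical histone genes, 18 were on the mitosis list, 2 on the replication list and 10 on none of these, among them the histone variant H2ax. On the common median 19 of the 27 histone genes measured were higher (70.4%) and none was lower (median 0.47). That share was near the 70.8% of all genes called higher at levels from 10 to 11, where the list had its mean (10.98). The median of all genes at those levels was 0.25. After quantile normalization 12 histone genes were higher. With the same upper quartile 16 were higher and 6 lower. H3c2 had 7033, 8746 and 9820.5 in proliferation-high regions and 3873, 4848 and 6061 in proliferation-low regions (log2 difference 0.79, SE 0.08; limma adjusted p = 1.32e-07). H2ac21 had 332, 398 and 444 in proliferation-high regions, against 237, 255 and 302 in proliferation-low regions. H4c17 had 37379.7, 43237 and 50330.4 in proliferation-high regions and 26932, 30496 and 36894 in proliferation-low regions. The groups were apart in all 3 genes. H2ac10 had the smallest p of the slope fit (limma adjusted p = 0.00123). It rose by 1.01 log2 units (SE 0.15) over a score difference of 0.55, that between the means of the 2 groups. Histone genes of a family are nearly identical in sequence, so probes may read more than 1 of them, and the counts of genes are uncertain for that reason.

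The 10 further genes of that slope fit included Haus7, a subunit of the augmin complex that nucleates microtubules in the spindle. It was also among the 15 largest increases of all genes, with 1876, 2410.4 and 3159 in proliferation-high regions and 912, 1289 and 1642 in proliferation-low regions (log2 difference 0.96, SE 0.10, limma adjusted p = 3.09e-07). Gtse1, a spindle and p53 regulator of G2 cells, differed by 0.55 (SE 0.06, adjusted p = 1.83e-07), with no overlap of the groups.

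Genes that act between the phases were less uniform. Of 18 DNA repair genes, 15 were higher (83.3%) and none lower (median 0.34), and 9 were higher after quantile normalization. At levels from 9 to 10, where the list had its mean (9.16), 60.4% of all genes were higher, with a median of 0.20. Bard1, a ubiquitin ligase subunit of homologous recombination, differed by 0.43 (SE 0.07), Fanci, of the Fanconi pathway, by 0.40 and the checkpoint kinase Chek1 by 0.39, each with a limma adjusted p of at most 2.36e-05. With the background covariate 1 of the 18 had an unadjusted p under 0.05. Of 5 genes of G1 entry, Cdk4 (0.43, SE 0.06) and Cdk6 (0.23, SE 0.06) were higher, and after quantile normalization their differences were 0.16 and 0.01, while the median of the list was 0.17 on the common median and -0.09 there. Among 7 CDK inhibitors, 4 of which lay above background, 3 were higher and 4 lower, and after quantile normalization 1 was higher and 1 lower. Cdkn2c, an inhibitor of CDK4 and CDK6 known as an E2F target, differed by 0.51 (SE 0.08, adjusted p = 2.15e-05) and by 0.32 after quantile normalization. Cdkn1b, encoding p27, differed by 0.26 (SE 0.07), by 0.03 after quantile normalization and by -0.11 with the background covariate. Rbl1, the p107 pocket protein, was higher by 0.34. Trp53 and its target Sesn1 were among 6 of 16 p53 genes called higher (37.5%), by 0.45 and 0.65, whereas 2 were lower. That share was near the 34.6% of all genes called higher at levels from 8 to 9, where the list had its mean (8.84). After quantile normalization 2 of the 16 were higher and 3 lower (median -0.03).

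The metabolic lists were not alike. All 19 genes of the respiratory chain and ATP synthase had a positive difference and 17 were called higher (89.5%, median 0.32). That median was near the 0.29 of all genes at levels from 11 to 12, where the list had its mean (11.3) and 73.7% were higher. After quantile normalization 4 of the 19 were higher and 1 lower (median 0.06), and 2 had an unadjusted p under 0.05 with the background covariate. Atp5a1, the alpha subunit of the synthase, had 8875, 10651 and 11667 in proliferation-high regions and 5209.8, 6678 and 7949 in proliferation-low regions (log2 difference 0.60, SE 0.07, limma adjusted p = 1.13e-06), and it stayed higher after quantile normalization, by 0.32. Atp5c1, the gamma subunit, differed by 0.60 and Uqcrc2, of complex III, by 0.45. In glycolysis 1 of 18 genes, Pfkm, a phosphofructokinase, was higher (0.46, SE 0.06), none was lower, and the list had a median of -0.03. After quantile normalization that median was -0.26, with 5 lower and 1 higher. The hypoxia targets had a median of -0.25 with 1 of 18 called, Adm, with a log2 difference of -0.19 (limma adjusted p = 0.0338). Adm lay below the background limit of the panel, and its call was lost in 7 of 18 fits that left out 1 region, with adjusted p up to 0.0785. After quantile normalization 0 of the 18 were called by limma (9 had an unadjusted p under 0.05, all lower), and with the same upper quartile 8 were lower. Ero1a, an oxidoreductase induced by hypoxia, had a difference of -0.69 (SE 0.38) and Bnip3, a mitophagy receptor, of -0.60 (SE 0.32), neither called. The integrated stress response list had 0 of 18 genes called by limma (median -0.02). After quantile normalization its median was -0.23 with 1 lower, or -0.31 with 6 lower where the regions were ranked again on those values, and 5 were lower with the same upper quartile. With the background covariate 11 had an unadjusted p under 0.05, all lower. In the knockdown regions alone 6 were higher and 1 lower (median 0.19), and in the control regions alone 0 were called (median -0.19, 1 at an unadjusted limma p under 0.05). Of 27 MYC and ribosome biogenesis genes 15 were higher and 2 lower (median 0.23). The share higher, 55.6%, lay below the 70.8% of all genes at levels from 10 to 11. After quantile normalization 2 were higher and 2 lower, with a median of -0.00. Cad, which starts pyrimidine synthesis, kept its call there (0.30, against 0.51 on the common median), while the nucleolar gene Ncl differed by 0.07 there (0.38 on the common median) and by -0.09 with the background covariate.

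All 26 interferon-stimulated genes had a negative difference, with a median of -0.60 on the common median and -0.78 after quantile normalization, of which limma called 6 and 7 lower. Of all genes at levels from 10 to 11, where the list had its mean (10.5), 0.885% were lower, and 7.25% after quantile normalization. Within labels 1 was called in the knockdown and 1 in the control regions, and with the background covariate 6 had an unadjusted p under 0.05 (median -0.96). Their region-to-region spread was wide. Iigp1, an immunity-related GTPase, had 239, 584 and 1617 in proliferation-high regions and 653, 1453 and 2534 in proliferation-low regions (log2 difference -1.08, SE 0.35, limma adjusted p = 0.0229). The transcription factor Irf7 had 722, 1786 and 2803 in proliferation-high regions and 1471, 3139 and 6454 in proliferation-low regions (-0.82, SE 0.29). The ranges overlapped in both. The calls of Irf7, Ifit3 (-0.81) and Rsad2 (-0.90), 2 antiviral genes, were lost in 5, 9 and 12 of 18 fits that left out 1 region each, with adjusted p up to 0.0648, 0.129 and 0.258. Over all 26 genes the summed signal was 23195 to 91990.3 in proliferation-high regions and 35792 to 147309 in proliferation-low regions. With the interferon list mean as a covariate, a fit added after the data were seen, 57 of the 58 mitosis genes were called higher. What relates the 2 lists was not tested.

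Genes of antigen presentation by MHC class I, which interferon induces, had a median of -0.49. Limma called 4 of 9 lower, and 7 of 9 after quantile normalization, when the median was -0.73. Of all genes at levels over 12, where the list had its mean (12.6), 1.47% were lower, and 7.62% after quantile normalization. H2-D1, a class I heavy chain, had 10954, 18527 and 25906 in proliferation-high regions, against 19734, 28004 and 37273 in proliferation-low regions (log2 difference -0.62, SE 0.16, limma adjusted p = 0.00555). The other classical chain H2-K1 differed by -0.66 (SE 0.20) and their transcriptional activator Nlrc5 by -0.67 (SE 0.19). Tap1, the peptide transporter, differed by -0.51 (SE 0.19, adjusted p = 0.0443), a call lost in 11 of 18 fits without 1 region, with adjusted p up to 0.0788. B2m, the light chain, had -0.27 (SE 0.17) and was not called on the common median. None of 7 class II genes was called. Class I chains are close in sequence, so H2-D1 and H2-K1 may share probe signal. In the TNF and NF-kB list 6 of 15 were lower (40%) and 1 higher, with a log2 difference of -0.26 for each of the feedback inhibitors Birc3 and Tnfaip3. Of all genes at levels from 8 to 9, where the list had its mean (8.88), 4.41% were lower. In that list 12 of the 15 genes lay above background.

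**Figure D4:**
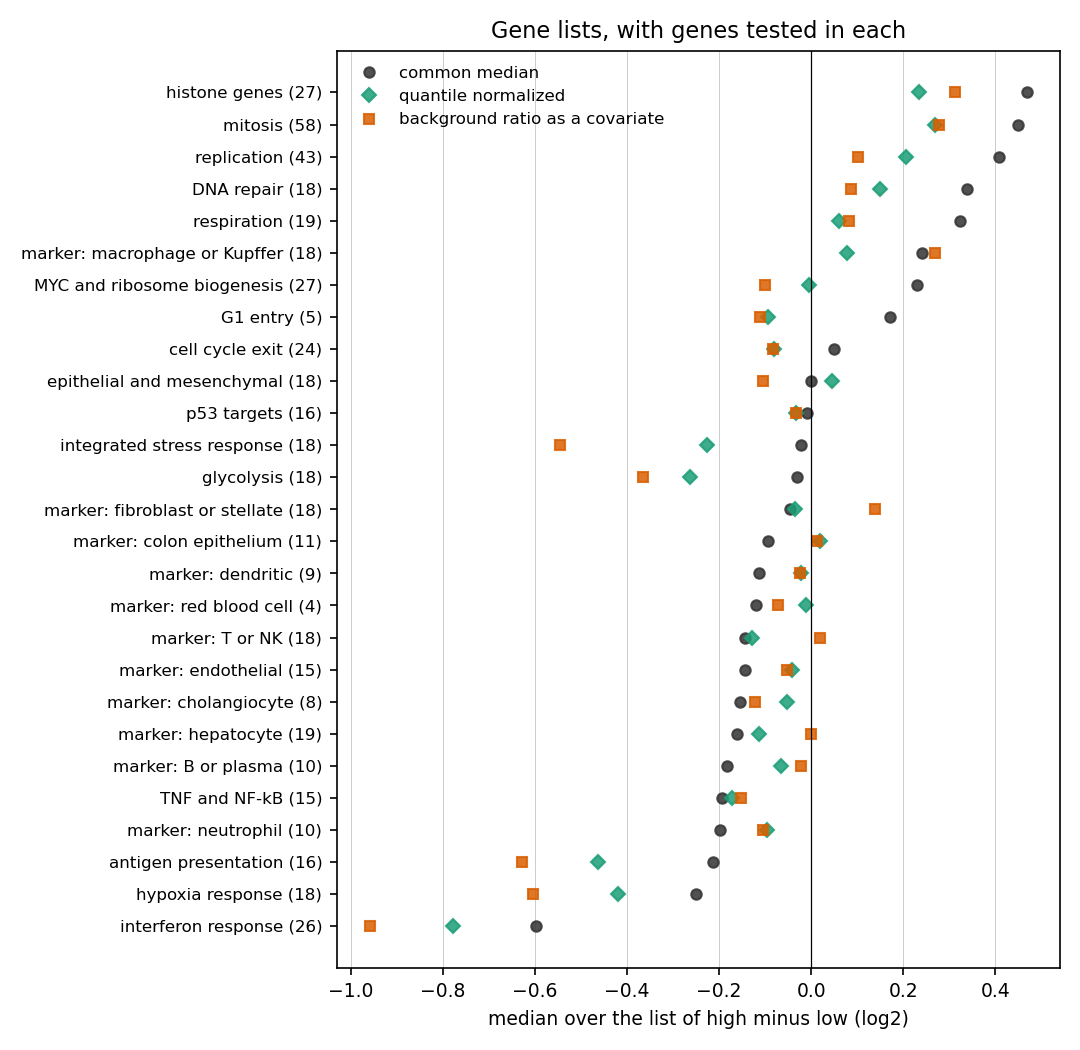
Median difference between proliferation-high and proliferation-low regions (x axis, log2) of each gene list (y axis, genes tested in brackets) on the common median (circles), after quantile normalization (diamonds) and with the background ratio as a covariate (squares). Mitosis lies at 0.45, 0.27 and 0.28 and interferon response at -0.60, -0.78 and -0.96, whereas MYC and ribosome biogenesis lies at 0.23, -0.00 and -0.10.

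The 5 largest increases and the 5 largest decreases lay outside the cell cycle lists. Among called genes above background, the largest increase was that of Fcrls, a scavenger receptor-like protein known in mouse from microglia and other macrophages, with 252, 517 and 937 in proliferation-high regions and 160.3, 174 and 230.0 in proliferation-low regions. Its log2 difference was 1.56 (SE 0.20, limma adjusted p = 2.09e-05), and the groups did not overlap. In the proliferation-low regions its median lay below the background limit, so the size depends on the background, and it was 2.89 with background subtracted. Mfap4, a protein of elastic microfibrils, had 1799, 5574 and 6709.7 in proliferation-high regions and 499.7, 1189 and 4821 in proliferation-low regions (1.52, SE 0.57, adjusted p = 0.0337). The Mfap4 call was lost without control region 6, control region 13 or knockdown region 4 (adjusted p up to 0.0743), and it was not called after quantile normalization (p = 0.231). Apoe, a lipid carrier, had 5309.5, 8612 and 12995 in proliferation-high regions and 1980.5, 3595 and 7792 in proliferation-low regions (1.21, SE 0.27). F3, tissue factor, had 836, 1155 and 1346 in proliferation-high regions, against 373, 501 and 669 in proliferation-low regions, and its groups were apart (1.10, SE 0.24). Col5a1, a fibrillar collagen chain, had 9545, 12898 and 17019 in proliferation-high regions and 4022, 6430.3 and 9891 in proliferation-low regions, with 1 region of overlap (1.04, SE 0.16, adjusted p = 1.72e-05). The other 10 of the 15 largest increases ran from 0.87 to 1.02. They were Tcf7l1, a repressor of the Wnt pathway, Cdc42ep1, an effector of CDC42, Gxylt2, a xylosyltransferase, the retinoid receptor Rxra, Haus7, S100a4, Pdgfrb, a receptor of pericytes and fibroblasts, the secreted protein Olfml3, the selenium carrier Selenop and the scavenger receptor Stab1. With the background covariate the differences were 1.55 for Fcrls, 0.76 for Mfap4, 1.97 for Apoe, 1.02 for F3 and 0.56 for Col5a1. Of the 15 increases, Apoe, S100a4 and Mfap4 were the ones not called after quantile normalization.

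Mmp11, stromelysin-3, had the largest decrease, with 276, 420.2 and 1386 in proliferation-high regions and 628, 1807 and 2838 in proliferation-low regions (log2 difference -1.62, SE 0.36, limma adjusted p = 0.00225). C1qtnf3, a secreted C1q-like protein, had 101, 224 and 418 in proliferation-high regions and 240.5, 452 and 3061 in proliferation-low regions (-1.43, SE 0.45). Without knockdown region 10, which holds the 3061, it differed by -1.12 and was not called (adjusted p = 0.058). Slfn4, a Schlafen gene of myeloid cells induced by interferon, had 317, 524 and 946 in proliferation-high regions, against 568.1, 1619.8 and 4005 in proliferation-low regions (-1.33, SE 0.28, adjusted p = 9.43e-04). Ly6c1, a surface antigen of monocytes and endothelium, had 1089, 3122 and 6458 in proliferation-high regions and 3596, 7567 and 13657 in proliferation-low regions (-1.20, SE 0.33). The ranges of the groups overlapped in all 4 genes, and with the background covariate the differences were -2.16 for Mmp11, -1.82 for C1qtnf3 and -1.69 for both Slfn4 and Ly6c1. The other decreases, besides Iigp1 and Rsad2, were Plac8 (-0.997), the EGF receptor ligand Areg (-0.99), the alarmin Il33 (-0.96), the early response gene Ier3 (-0.96), the proliferin Prl2c3 (-0.95), the guidance receptor Robo1 (-0.92), and 3 genes of nucleic acid sensor families induced by interferon, Zbp1 (-0.90), Ifi211 (-0.89) and Ifi205 (-0.88). Areg lay below the background limit in most proliferation-high regions, and with background subtracted its difference was -4.09. The call of Areg was lost without control region 6 (adjusted p = 0.341). That of Robo1 was lost without knockdown region 2 (0.0526), that of Zbp1 without control region 2 or knockdown region 6 (0.0502 and 0.0516), and that of Prl2c3 in 4 of 18 fits (up to 0.188). Robo1 differed by 0.12 in the control regions alone, against -0.92 over both labels. As throughout, p-values are too small because regions shared mice.

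**Figure D5:**
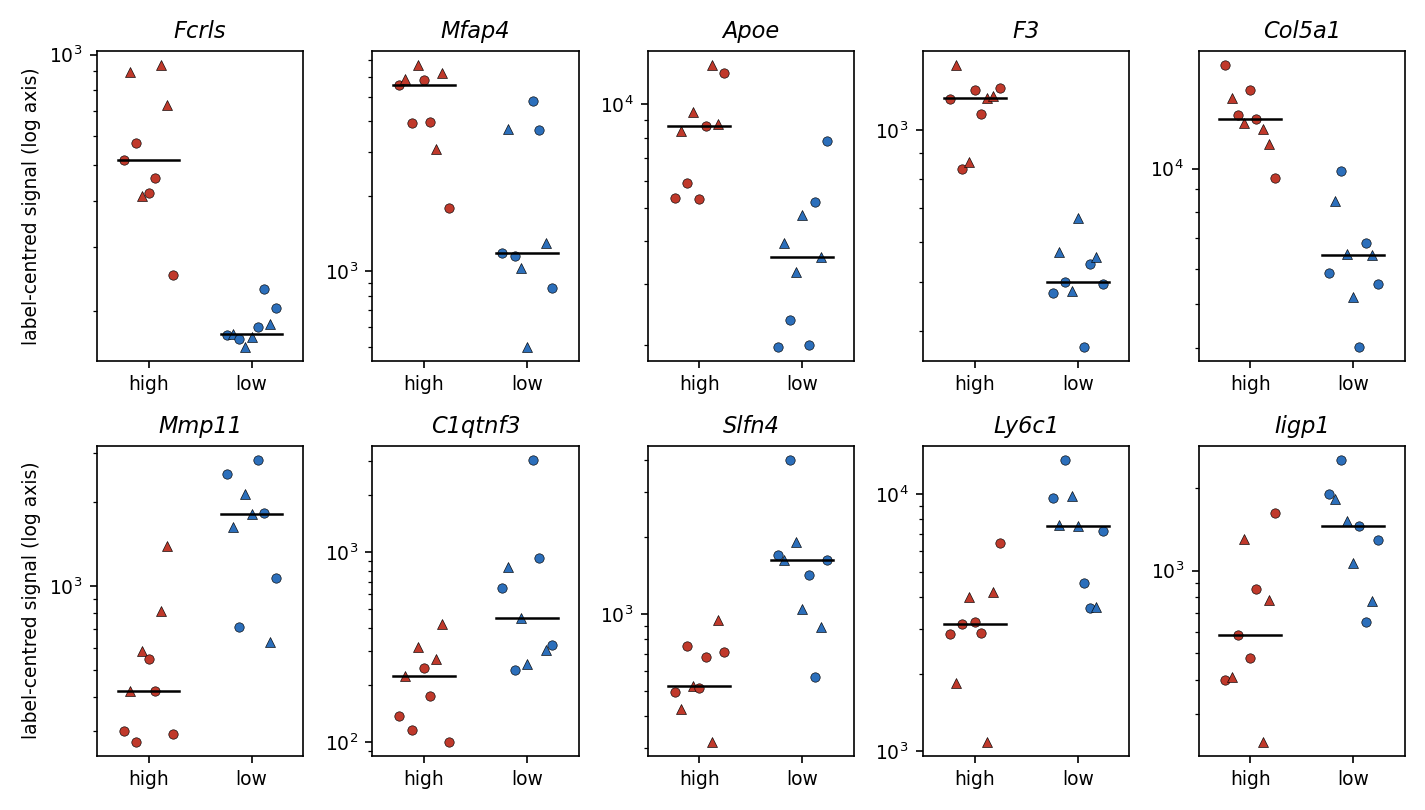
Signal (y axis, log scale, common scale with the label difference removed) of the 5 genes with the largest increases (top) and the 5 with the largest decreases (bottom) in the 9 proliferation-high and 9 proliferation-low regions (x axis; circles, knockdown; triangles, control; line, median). High and low regions do not overlap in Fcrls and F3 and overlap in the other 8 genes.

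Markers of other cells in the segments were compared as well. Over the 18 macrophage or Kupffer cell markers the summed signal was 17769 to 26673 in proliferation-high regions and 13095 to 19324.5 in proliferation-low regions, with 7 markers higher and 2 lower. The mean log2 level of these markers was 9.11. Of them 38.9% were called higher, against 60.4% of all genes at levels from 9 to 10. The complement genes C1qa (0.54), C1qb (0.53) and C1qc (0.53) and the mannose receptor Mrc1 (0.78) were higher. After quantile normalization 1 of the 18 was higher, Mrc1, and 1 lower. The 18 fibroblast or stellate cell markers summed to 49781 to 82437.5 in proliferation-high regions and 33104 to 61089.7 in proliferation-low regions, although their median difference was -0.05. Of the 18, 4 were higher, 1 was lower and 13 were not called. Those higher were Col5a1, Col6a1 (0.66), Pdgfrb (0.93) and Sparc (0.38). The share higher, 22.2%, lay below the 60.4% of all genes at levels from 9 to 10, where the list had its mean (9.82). After quantile normalization 2 fibroblast markers were higher and 0 lower. Neutrophil markers were lower in 8 of 10 (median -0.20), but 2 of the 10 lay above background, Csf3r among them (-0.34, SE 0.07, limma adjusted p = 2.25e-04), and after quantile normalization 2 of the 10 were lower. T or NK cell markers were lower in 6 of 18, 8 of which lay above background, with a log2 difference of -0.45 for the receptor gene Klrk1, and in 1 of 18 after quantile normalization. Hepatocyte markers summed to 3770.3 to 12492 in proliferation-high regions and 2499.5 to 11492.5 in proliferation-low regions, with 1 of 19 called. Of the other lists, 3 of 10 B or plasma cell, 3 of 9 dendritic cell, 4 of 8 cholangiocyte, 3 of 11 colon epithelium and 1 of 4 red blood cell markers were lower and none higher, and 4 of 15 endothelial markers were lower and 2 higher. Most of these markers lay at or below the background of the panel, where 26.4% of the receptor genes were also lower. None of the markers of these lists was at 0 in any region. With the macrophage list mean as a covariate 56 of the 58 mitosis genes were called higher, and 56 with the fibroblast list mean, fits added after the data were seen. In the same fits 1 and 4 of the 26 interferon genes were called lower, against 6 without a covariate, and 0 and 3 of the 9 class I genes, against 4. Why these counts differed was not tested.

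The genes of the study's own question were then compared. Cmtm6 had 500.1, 635 and 725 in proliferation-high regions and 426, 618 and 726 in proliferation-low regions, a log2 difference of 0.12 (SE 0.08, limma adjusted p = 0.232) that was -0.05 after quantile normalization and -0.06 with the same upper quartile. Slc2a1, the glucose transporter Glut1, had 437, 589 and 815 in proliferation-high regions and 473, 756 and 2174 in proliferation-low regions (-0.47, SE 0.27, adjusted p = 0.179). The recycling GTPases Rab11a (0.23, SE 0.06) and Rab11b (0.36, SE 0.06) and the CMTM6 relative Cmtm4 (0.26, SE 0.07) were higher on the common median, and 0.02, 0.11 and 0.06 after quantile normalization, where none was called. Cd274, which encodes PD-L1 and is induced by interferon, was the one of these genes that kept its call on both scales. It had 413, 478 and 788 in proliferation-high regions, against 633, 902 and 1487 in proliferation-low regions, and 7 of the 9 high regions lay below all low regions. Its log2 difference was -0.78 (SE 0.16, adjusted p = 4.48e-04), -0.95 after quantile normalization (adjusted p = 5.20e-04) and -1.07 with the background covariate (unadjusted limma p = 0.00198).

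Whether the difference between proliferation-high and proliferation-low regions was itself different in knockdown and in control regions was tested as an interaction in limma. None of the 19609 genes passed (smallest adjusted p = 0.9998), and 580 had an unadjusted p under 0.05. After quantile normalization the count was 0 as well, with 1410 at an unadjusted p under 0.05. With 5 against 5 knockdown regions and 4 against 4 control regions, this does not show that the labels respond alike. Fitted alone, with 4 against 4 regions, the knockdown regions gave 4363 genes higher and 1106 lower. The control regions alone, with 5 against 5 regions, gave 2786 and 509.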

How the data were processed

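Formalin-fixed sections were read region by region with GeoMx whole-transcriptome probes for mouse, and the deposited table gave 1 signal value for each of 19615 targets in 27 regions. As deposited, the signal had the same upper quartile in all regions of a label, 539 in knockdown and 788 in control regions, as a scaling to the upper quartile within each label would give; the step itself is not given in the sources used here. Within a region at least 99.98% of values were whole multiples of 1 step (tolerance 0.01 of a step), but the lowest value was 10 to 126 steps, so that steps were not taken as reads and no count model was run. Totals of 4223031 to 26328209 steps give the relative depth. The genome build of the probe panel is not given in the sources used here, and 0 columns were left unused.

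Each region was set to a common median, log2(signal + 1) was taken, and each gene was centred within its label. The 9 highest and the 9 lowest regions by the score were compared for 19609 genes with limma 3.58.1 (trend and robust) in R 4.3.3, two-sided, with Benjamini-Hochberg adjustment over all genes and a threshold of 0.05. The rank of regions and the exact permutation test over regions used label-centred values. No pair of regions within a label held identical values (169 pairs). Background was taken from 1125 chemosensory receptor genes, and a gene was above background over their percentile 95 (log2 level 7.63; 10799 genes). The named genes were the score genes, the 15 called genes above background that rose most and the 15 that fell most, up to 4 genes of smallest p and 2 of highest level in each list, and the genes of the study's question, some of which are not reported here. Kif2c, Ube2c, Bub1b, Gtse1, H2ac10, the histone group and the Mcm5 promoter were chosen after their values were seen. The regions, members and lists were chosen with earlier results of these data known. Of 492 list genes 4 were not matched. Promoter windows and coordinates were from RefSeq, GRCm38.p6. The fits were tested on simulated data. Alternatives were other scalings, pseudocounts, filters, scores, group sizes, covariates and the removal of each region.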

Additional observations from a re-analysis of the deposited data

Results flagged for a closer look

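Among 38 groups of 9 regions checked, for the totals, the background level, the score, the score genes and the genes with the largest changes, 3 held a region far from the others of its group; chance alone flags about 1 group in 20. Mmp11 had 1386 in control region 14 of the proliferation-high regions, next to 809.5 in the nearest of the others. C1qtnf3 had 3061 in knockdown region 10 of the proliferation-low regions, next to 933. Slfn4 had 4005 in knockdown region 4 of the proliferation-low regions, next to 1916. The decrease of C1qtnf3 was not called without knockdown region 10 (log2 difference -1.12, limma adjusted p = 0.058), whereas those of Mmp11 and Slfn4 were called in all 18 fits that left out 1 region.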

How the results depend on the processing

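The counts of 5370 genes higher and 2376 lower moved with the scaling. With the same upper quartile there were 1956 higher and 10207 lower, with the deposited values 1977 and 10180, after quantile normalization 1176 and 722 (1338 and 815 with the split of regions kept), and after background subtraction 1127 and 615. Among genes above background 479 were lower. The control regions alone gave 2786 and 509, and the knockdown regions alone 1106 lower. The background ratio as a covariate left 0 and 0, the slope with that ratio 43 and 5, and the macrophage list mean as a covariate 1130 lower. Without 1 region each, 4823 to 5652 were higher and 1719 to 2824 lower. The log2 difference of totals was -0.073 to 0.114 without 1 region each and -0.11 with 13 against 13 regions, and that of the background ratio was -0.32 to -0.27 without 1 region each. Directions turned with the background covariate for Ube2s (-0.018), Rrm2 (-0.23), Cdkn1b (-0.11), Ncl (-0.086) and Cmtm6 (-0.081). In the slope with the ratio they turned for Cdkn1b (-0.16), Cmtm6 (-0.22) and Cmtm4 (-0.00015). Cmtm6 was also at -0.056 with the same upper quartile, -0.055 with the deposited values, -0.049 after quantile normalization (-0.045 with the split kept) and -0.062 after background subtraction. B2m was at 0.036 with the interferon list mean as a covariate and Robo1 at 0.12 in control regions alone. The cause was not tested in any of these. Of 87 called named genes, 76 were called in all 18 fits without 1 region and 11 were lost in some. No paired analysis was possible because the labels number no replicates, and the region numbers used here follow the order of deposit and pair no regions. A count model was not run, since steps could not be taken as reads. The list means, the kept split and the slope with the ratio were chosen after seeing the data. Depth differed several-fold between regions.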
